A study of Mus musculus with 24 samples.

Results

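The 9 genes described here encode proteins that capture, break down and make haem: haptoglobin (Hp), hemopexin (Hpx), the haem oxygenases (Hmox1 and Hmox2), the biliverdin reductases (Blvra and Blvrb), and the enzymes of the first, the second and the last step of haem synthesis (Alas1, Alad and Fech). They were chosen by gene name, as 9 of the 55536 genes in the deposited expression table, and all 9 passed the filter on low values (mean of 1 or more in TPM, transcripts scaled to a fixed total of 1000000), as 10555 genes did. RNA had been sequenced in 24 liver libraries from wild type mice of the Balb/c strain, aged 6 weeks. The healthy control group (Con), the group with acute pancreatitis (AP, inflammation of the pancreas) and the group with severe acute pancreatitis (SAP, in which organs beyond the pancreas may fail) held 8 libraries each. All groups shared strain, genotype and age and differed in the labelled disease state. The sources used here do not give the way pancreatitis was induced or the time at which livers were taken. Nor do the labels say whether libraries stem from separate mice, so the p-values rest on the spread among libraries, which may be technical.

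Haem is the iron-holding group of haemoglobin and of many liver enzymes such as the cytochromes P450, and free haem damages membranes. Plasma haptoglobin captures haemoglobin that has left red cells and hemopexin captures free haem, and both are secreted mainly by hepatocytes. Inside cells, haem oxygenase opens the haem ring to biliverdin, with release of iron and carbon monoxide, and biliverdin reductase turns biliverdin into bilirubin. New haem is made from glycine and succinyl-CoA in a chain of enzymes that starts and ends in the mitochondrion, and in liver the first enzyme, ALAS1, sets the rate.

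Libraries summed to 986423 to 993642 TPM and held 17140 to 18565 genes above 0, and because TPM keeps no read counts, the depth is unknown and no counting error could be given. The log2 profiles of libraries within a group correlated at 0.941 to 0.966 in Con, 0.940 to 0.973 in AP and 0.925 to 0.974 in SAP. Earlier results of these data had set some libraries apart. These were Con 3 and 9, SAP 26 to 29 against the other SAP libraries, and AP 15, 17, 18 and 19 against the other AP libraries. Values with and without them are given where a call changed. The summed level of 10 hepatocyte markers was 106563 ± 7627 TPM in Con, 107838 ± 5936 TPM in AP and 64317 ± 9491 TPM in SAP (SD, n = 8). Single markers differed: Apoa2 went from 40488 ± 5067 TPM in Con to 16112 ± 4175 TPM in SAP. Alb was 15491 ± 1350 TPM in Con and 16671 ± 2637 TPM in SAP, and Tat was 172 ± 42.9 and 1554 ± 380 TPM. The share of TPM from mitochondrially encoded genes was 17.1% ± 3.68 in Con, 10.9% ± 1.996 in AP and 4.46% ± 1.02 in SAP. This share and the hepatocyte sum were lower in SAP than in Con by an exact permutation test, two-sided, 8 against 8 libraries (adjusted p = 0.0004079 for each over 21 tests). In whole liver, fewer cells of a type and less RNA per cell cannot be told apart. Because TPM has a fixed total, a rise of other abundant transcripts also lowers such sums, and its part was not tested.

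In SAP against Con, 6 of the 9 genes rose (Hp, Hpx, Hmox1, Hmox2, Alas1 and Fech), 2 fell (Blvrb and Alad) and 1 did not pass (Blvra), by limma with a Benjamini-Hochberg adjusted p under 0.05 over all genes tested. In that comparison 74% of all genes tested passed, 44.2% higher and 29.8% lower, so a count of calls does not set these genes apart from the rest. The size of the changes ranged from a fall of Alad to 0.126 times the control level to a 5.97-fold rise of Hmox1. The ranges of SAP and Con did not overlap for 7 of the 9 genes, against 37.8% of all genes tested. In SAP against AP, 4 rose (Hp, Hpx, Hmox1 and Hmox2), 2 fell (Blvrb and Alad) and 3 did not pass, where 72.1% of all genes passed, 41% higher and 31% lower. There the ranges of 6 of the 9 did not overlap, against 37.3% of all genes. In AP against Con, only Alas1 of the 9 passed, as a rise, where 5.48% of all genes passed, 4.35% higher and 1.13% lower. None of the 9 had ranges of AP and Con that did not overlap, against 0.748% of all genes. The AP and SAP comparisons with Con share the control libraries. The median log2 change of the 9 genes was 0.28 in AP against Con, 1.12 in SAP against Con and 0.35 in SAP against AP, beside medians over all genes tested of 0.06, 0.21 and 0.13. All folds come from log2(TPM + 1) values, so those of low genes are understated.

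**Figure D1:**
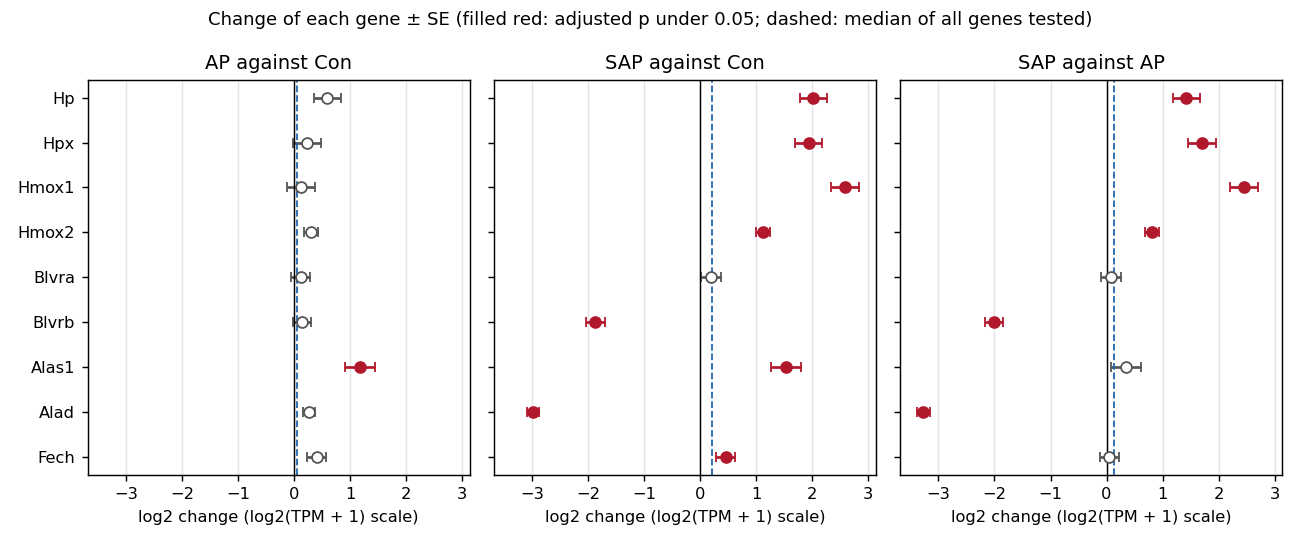
Log2 change ± SE of the 9 genes in AP against Con, SAP against Con and SAP against AP (x axis, log2(TPM + 1) scale), with filled red points for adjusted p under 0.05 in limma and a dashed line at the median of all genes tested. Alad and Blvrb lie far to the left in both SAP comparisons, Hmox1 farthest to the right, and Alas1 alone is filled in AP against Con.

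Both plasma scavengers rose in SAP. Hp, which binds free haemoglobin, ran from 3684 over a median of 7607 to 18251 TPM in Con. In AP it ran from 6990 over 11924 to 16303 TPM. In SAP it ran from 27225 over 29406 to 34770 TPM. Every SAP library lay above every other library, and AP lay inside the control range, whose top was set by Con 3 (18251 TPM) and Con 9 (12742 TPM). The rise in SAP was 2.02 ± 0.24 (log2 change ± SE, 4.05-fold, limma adjusted p = 3.41e-08) against Con and 1.42 ± 0.24 (2.68-fold, adjusted p = 8.09e-06) against AP. Against Con, the AP value of 0.59 ± 0.24 did not pass (limma adjusted p = 0.14). Without Con 3 it was 0.78 and passed (limma adjusted p = 0.02152), and without Con 3 and 9 it was 0.94 (limma adjusted p = 0.004759). Con 3 and 9 are the highest controls for Hp, so leaving them out had to raise this value. The p-values without them are therefore no evidence of a rise in AP. By mean level, Hp ranked as number 20 of all genes in Con, 14 in AP and 4 in SAP.

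Hpx, which binds free haem with high affinity, followed the same order of groups. It ran from 2519 over a median of 5149 to 12999 TPM in Con, from 3168 over 6731 to 8812 TPM in AP, and from 15304 over 18779 to 24724 TPM in SAP. All 8 SAP libraries were above all others, and AP lay within the control range. The rise was 1.93 ± 0.25 against Con (3.82-fold, limma adjusted p = 1.48e-07) and 1.71 ± 0.25 against AP (3.26-fold, limma adjusted p = 1.17e-06), and AP against Con gave 0.23 ± 0.25 (limma adjusted p = 0.671). Together Hp and Hpx made up 1.45% ± 0.834 of all TPM in Con, 1.79% ± 0.440 in AP and 5.05% ± 0.583 in SAP (SD, n = 8), an added description chosen after the values were seen.

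The promoter of Hpx is shown because Hpx rose with the acute-phase genes described further on, and the letters searched for include those of the factor family C/EBP, which drives liver acute-phase genes. The window spans 250 bases before to 50 after the start, chr7:105600067-105600366 on the minus strand, from RefSeq on GRCm38.p6, written 5′ to 3′. Capitals mark exact matches to TTNCNNAA (C/EBP) at -200 to -193 and -73 to -66, and to TGACNNNGC (the core of the antioxidant response element) on the other strand at -95 to -87, where -1 is the base before the start.
Hpx: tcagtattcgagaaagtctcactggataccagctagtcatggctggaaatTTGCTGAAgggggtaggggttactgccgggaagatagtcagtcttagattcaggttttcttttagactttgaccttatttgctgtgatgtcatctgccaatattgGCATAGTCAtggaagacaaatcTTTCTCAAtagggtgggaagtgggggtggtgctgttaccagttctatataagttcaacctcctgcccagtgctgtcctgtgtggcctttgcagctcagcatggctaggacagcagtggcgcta
Both strands were searched, also for TTCNNNGAA (STAT) and CACGTG (E-box). Of 32851 promoter windows of the same length, 40.7% held the C/EBP letters, 12.4% the antioxidant core, 8.3% the STAT letters and 7.15% the E-box, so such matches are a description only. Among the other members, the C/EBP letters also occurred in Hmox2 (1 place, inside 2 of its 3 windows), the STAT letters in Alas1 (at -171 to -163 in 1 of 2 windows), the antioxidant core in Blvra (at -49 to -41), which did not pass in any comparison, and the E-box in Alad. The promoter table was matched by symbol for 6 of the 9 genes. Hp and Hmox1 were among the genes without an entry.

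Among the genes of haem breakdown, both oxygenases rose in SAP and the reductases parted. Hmox1, the inducible oxygenase, read 4.37, 15.5, 3.92, 6.66, 3.85, 3.72, 7.46 and 3.72 TPM in Con 1, 3, 5, 6, 7, 8, 9 and 10. In AP it ran from 4.26 over a median of 6.51 to 8.44 TPM. SAP 21, 22, 24, 25, 26, 27, 28 and 29 gave 43.9, 39.0, 15.8, 34.3, 41.0, 31.6, 62.7 and 52.2 TPM. The ranges did not overlap, but the lowest SAP library (SAP 24, 15.8 TPM) and the highest control (Con 3, 15.5 TPM) came close. The rise was 2.58 ± 0.25 against Con (5.97-fold, limma adjusted p = 1.37e-09) and 2.45 ± 0.25 against AP (5.46-fold, limma adjusted p = 3.81e-09). AP against Con was 0.13 ± 0.25 (limma adjusted p = 0.842). Macrophages also make this enzyme. Summed Kupffer cell markers were 200.2 ± 105 TPM in Con and 129 ± 35.6 TPM in SAP (exact permutation test, adjusted p = 0.1075). Monocyte markers were 34.8 ± 20.2 and 50.7 ± 10.5 TPM (exact permutation test, adjusted p = 0.1075). Neutrophil markers were 10.2 ± 8.87 and 195 ± 73.3 TPM (exact permutation test, adjusted p = 0.0004079). The neutrophil sum in SAP was carried mainly by S100a9 (134 ± 46.8 TPM) and S100a8 (49.8 ± 26.4 TPM). Of the 10 markers 3 were tested (S100a8, S100a9 and Retnlg), and all 3 rose, beside 44.2% higher over all genes tested. Elane, not tested, was lower in SAP (0.205 TPM in Con, 0.0563 TPM in SAP), but was at 0 in 5 of 8 SAP libraries. Every other untested neutrophil marker had a higher mean in SAP than in Con. The part of Kupffer cells, monocytes and neutrophils in the Hmox1 values was not tested.

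Hmox2, the constitutive oxygenase, ran from 13.1 over a median of 14.8 to 20.5 TPM in Con, from 16.0 over 19.2 to 24.9 TPM in AP, and from 28.9 over 37.0 to 45.5 TPM in SAP. SAP lay above both other groups with no overlap, and 4 of 8 AP libraries lay above every control. It rose by 1.12 ± 0.13 against Con (2.17-fold, limma adjusted p = 2.22e-08) and 0.82 ± 0.13 against AP (1.76-fold, limma adjusted p = 3.49e-06), and AP against Con gave 0.30 ± 0.13 (limma adjusted p = 0.166). Exons of Hmox2 overlap Cdip1 on the opposite strand, and the sources used here do not say whether reads were counted by strand.

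Within each library, Hmox1 stood at 0.255 to 0.758 times the TPM of Hmox2 in Con, 0.234 to 0.440 in AP and 0.520 to 1.59 in SAP. The mean log2 ratio of (TPM + 1) was -1.38 ± 0.44 in Con, -1.56 ± 0.25 in AP and 0.08 ± 0.47 in SAP (SD, n = 8). It was higher in SAP than in Con by 1.46 (exact permutation test, two-sided, adjusted p = 0.0005594 over 9 ratio tests), with 7 of 8 SAP libraries above every control. Over AP the difference was 1.63 (exact permutation test, adjusted p = 0.0003497), with all 8 above. AP and Con differed by -0.17 (exact permutation test, adjusted p = 0.4488). The smallest p that 12870 arrangements of 8 against 8 allow is 0.000155.

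Blvra, the main biliverdin reductase of adult tissue, ran from 5.65 over a median of 7.81 to 11.7 TPM in Con and from 7.49 over 8.76 to 10.6 TPM in AP. In SAP 21, 22, 24 and 25 it was 8.17, 5.15, 7.66 and 6.49 TPM, and in SAP 26, 27, 28 and 29 it was 12.6, 13.2, 12.9 and 14.7 TPM. The latter 4 lay above every control and the former 4 did not, so the SAP values fell into separate sets. Over all 8 libraries Blvra did not pass in any comparison (log2 change 0.19 ± 0.17, limma adjusted p = 0.319 against Con, 0.08 ± 0.17, adjusted p = 0.704 against AP, and 0.12 ± 0.17, adjusted p = 0.777 for AP against Con). Without SAP 21, 22, 24 and 25 the value against Con was 0.63 and passed (limma adjusted p = 0.000607). Without SAP 26 to 29 it was -0.25 and did not (limma adjusted p = 0.1664). As the sets hold the lower and the higher Blvra values, the direction of these shifts followed from the choice of set. They are no test of Blvra in SAP.

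Blvrb, which reduces flavins and the biliverdin isomers of fetal life, fell in SAP. It ran from 75.9 over a median of 113 to 216 TPM in Con and from 99.4 over 121 to 148 TPM in AP. In SAP it ran from 24.6 over 29.1 to 39.1 TPM. All SAP libraries lay below all others. The log2 change was -1.87 ± 0.16 against Con (0.273 times, limma adjusted p = 2.15e-10) and -2.01 ± 0.16 against AP (0.248 times, limma adjusted p = 6.63e-11), while AP against Con gave 0.14 ± 0.16 (limma adjusted p = 0.691). The TPM ratio of Blvra to Blvrb was 0.0504 to 0.107 in Con, 0.0570 to 0.0868 in AP and 0.209 to 0.438 in SAP, with no overlap between SAP and the others. On the log2 scale SAP was higher by 2.07 than Con and by 2.09 than AP (exact permutation test, adjusted p = 0.0003497 for each), and AP and Con differed by -0.03 (exact permutation test, adjusted p = 0.8763). The promoter of Blvrb is shown as that of a gene that fell (chr7:27447728-27448027, plus strand, RefSeq on GRCm38.p6, 5′ to 3′). It held none of the 4 motifs, hence no capitals.
Blvrb: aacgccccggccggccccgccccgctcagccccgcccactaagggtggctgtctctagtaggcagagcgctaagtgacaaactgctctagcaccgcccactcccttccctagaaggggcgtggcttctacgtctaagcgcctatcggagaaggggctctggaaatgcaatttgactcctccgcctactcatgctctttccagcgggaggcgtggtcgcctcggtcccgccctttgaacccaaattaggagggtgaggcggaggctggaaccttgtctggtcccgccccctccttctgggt
A further start of Blvrb, at chr7:27452168-27452467, held none of them either.

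**Figure D2:**
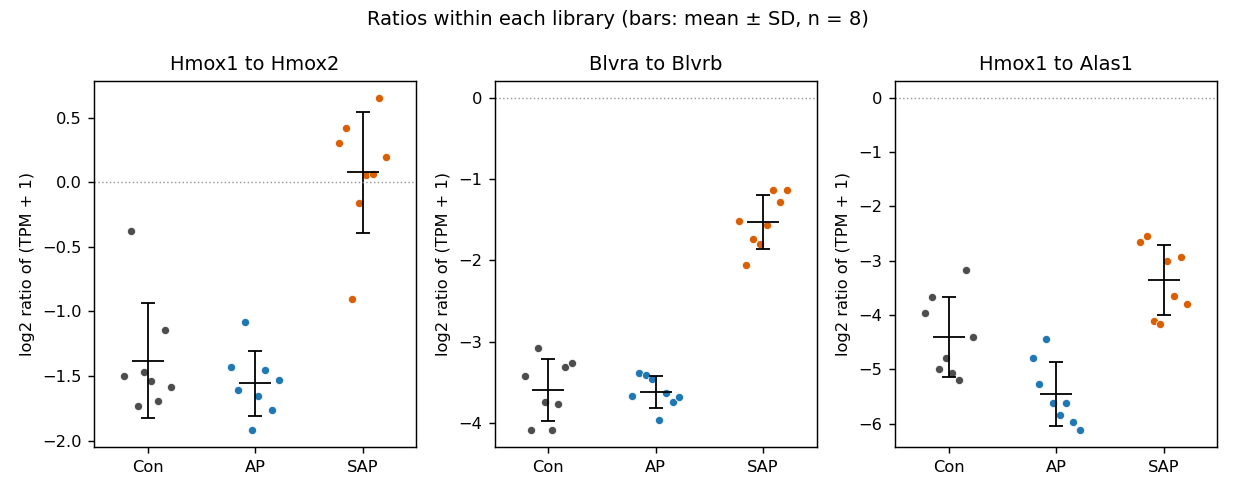
Log2 ratio of (TPM + 1) within each library for Hmox1 to Hmox2, Blvra to Blvrb and Hmox1 to Alas1 in Con, AP and SAP (points are libraries, bars mean ± SD, n = 8, dotted line at a ratio of 1). In the first panel SAP sits at 0.08 ± 0.47 with 1 control, Con 3, inside its range, and in the second all SAP libraries lie above the rest.

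The genes of haem synthesis did not move together. Alas1, the first and rate-setting enzyme in liver, read 83.2, 208, 156, 213, 161, 173, 75.4 and 98.5 TPM in Con 1, 3, 5, 6, 7, 8, 9 and 10. AP 11, 12, 13, 15, 16, 17, 18 and 19 read 228, 230.5, 178, 334, 309, 463, 329.6 and 588 TPM. SAP 21, 22, 24, 25, 26, 27, 28 and 29 read 283, 234, 289.6, 632, 336, 407, 486 and 742 TPM. All SAP libraries and 7 of 8 AP libraries lay above every control, and AP and SAP overlapped. Alas1 rose by 1.18 ± 0.27 in AP (2.27-fold, limma adjusted p = 0.0155) and by 1.53 ± 0.27 in SAP (2.89-fold, limma adjusted p = 1.87e-05) against Con, and SAP against AP gave 0.35 ± 0.27 (limma adjusted p = 0.256). In AP, libraries 15, 17, 18 and 19 held 329.6 to 588 TPM against 178 to 309 TPM in the other 4. Without AP 15, 17, 18 and 19 the change was 0.76 (limma unadjusted p = 0.02392, adjusted p = 0.7298). In that fit 11 genes passed against 578 with all libraries. As these libraries hold the highest Alas1 values in AP, leaving them out had to lower the change. Leaving out 1 library at a time gave 1.05 to 1.30 and kept the call. AP 11, 12 and 16 also lay above every control. Exons of Alas1 overlap 4930500F10Rik on the opposite strand.

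Alad, the second enzyme, joins pairs of aminolaevulinate into the first ring and changed most of the 9 genes in SAP. Con 1, 3, 5, 6, 7, 8, 9 and 10 held 469.6, 520.03, 635, 587, 539.98, 517, 548 and 529 TPM. AP 11, 12, 13, 15, 16, 17, 18 and 19 held 748, 803, 541, 629, 603, 677, 746 and 547 TPM. SAP 21, 22, 24, 25, 26, 27, 28 and 29 held 66.4, 70.6, 85.6, 75.6, 73.8, 57.6, 63.7 and 50.3 TPM. The highest SAP library lay far below the lowest control (85.6 against 469.64 TPM), and 4 of 8 AP libraries lay above every control. Alad fell by 2.99 on the log2 scale (SE 0.11, 0.126 times, limma adjusted p = 1.21e-17) against Con and by 3.27 (SE 0.11, 0.104 times, limma adjusted p = 2.67e-18) against AP, and AP against Con gave 0.28 ± 0.11 (limma adjusted p = 0.134). Its rank by mean level went from 190 in Con and 172 in AP to 1003 in SAP. Of 10 hepatocyte markers 7 fell in SAP against Con and Tat rose, beside 29.8% lower and 44.2% higher over all genes tested. Alb (limma adjusted p = 0.462) and Apoa1 (limma adjusted p = 0.242) did not pass. The part of the lower summed marker level in the fall of Alad was not tested. The promoter is shown at both annotated starts because this gene changed most, and in each capitals mark 1 match to the E-box CACGTG, at -105 to -100 (chr4:62520014-62520313) and at -28 to -23 (chr4:62519860-62520159), both on the minus strand, RefSeq on GRCm38.p6, 5′ to 3′.
Alad, upstream start: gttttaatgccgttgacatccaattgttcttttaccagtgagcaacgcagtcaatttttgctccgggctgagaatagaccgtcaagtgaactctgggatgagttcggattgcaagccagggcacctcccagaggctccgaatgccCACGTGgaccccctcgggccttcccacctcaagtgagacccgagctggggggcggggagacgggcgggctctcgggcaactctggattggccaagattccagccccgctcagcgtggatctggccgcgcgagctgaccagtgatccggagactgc
Alad, downstream start: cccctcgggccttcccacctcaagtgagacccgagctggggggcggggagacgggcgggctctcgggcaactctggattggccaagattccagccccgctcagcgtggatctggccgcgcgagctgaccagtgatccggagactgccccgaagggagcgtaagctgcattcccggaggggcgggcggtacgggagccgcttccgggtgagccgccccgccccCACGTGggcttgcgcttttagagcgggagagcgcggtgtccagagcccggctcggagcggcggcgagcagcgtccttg
The windows overlap in the genome, and the capitals mark separate places.

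Fech, the last enzyme, which inserts iron into protoporphyrin, ran from 8.76 over a median of 11.1 to 18.7 TPM in Con, from 12.1 over 14.7 to 22.2 TPM in AP and from 11.6 over 15.5 to 24.2 TPM in SAP. The groups overlapped, with 3 of 8 SAP libraries above every control. The rise in SAP against Con was small, at 0.45 ± 0.16 (1.37-fold, limma adjusted p = 0.0159), and was lost with quantile normalization (0.23, limma adjusted p = 0.06943), median centring (0.18), rescaling without mitochondrial genes (0.26) and without SAP 26 to 29 (0.27). AP against Con gave 0.40 ± 0.16 (limma adjusted p = 0.153) and SAP against AP 0.05 ± 0.16 (limma adjusted p = 0.789).

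Set against the first step of synthesis alone, not synthesis as a whole, the ratio of Hmox1 to Alas1 was lowest in AP and highest in SAP. Its mean log2 value was -4.41 ± 0.74 in Con, -5.46 ± 0.59 in AP and -3.36 ± 0.65 in SAP (SD, n = 8). It was lower in AP than in Con by a difference of -1.05 (exact permutation test, adjusted p = 0.01072), with 6 of 8 AP libraries below every control. Without AP 15, 17, 18 and 19 the difference was -0.68 and did not pass (exact permutation test, unadjusted p = 0.1414). SAP was higher than Con by 1.05 (exact permutation test, adjusted p = 0.01479), with 4 of 8 above every control, and higher than AP by 2.10 (exact permutation test, adjusted p = 0.0003497). Without SAP 26 to 29 the difference from Con kept its size, at 1.04, but did not pass with fewer libraries (exact permutation test, unadjusted p = 0.06263). Without SAP 21, 22, 24 and 25 it was 1.06 (exact permutation test, unadjusted p = 0.02626).

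**Figure D3:**
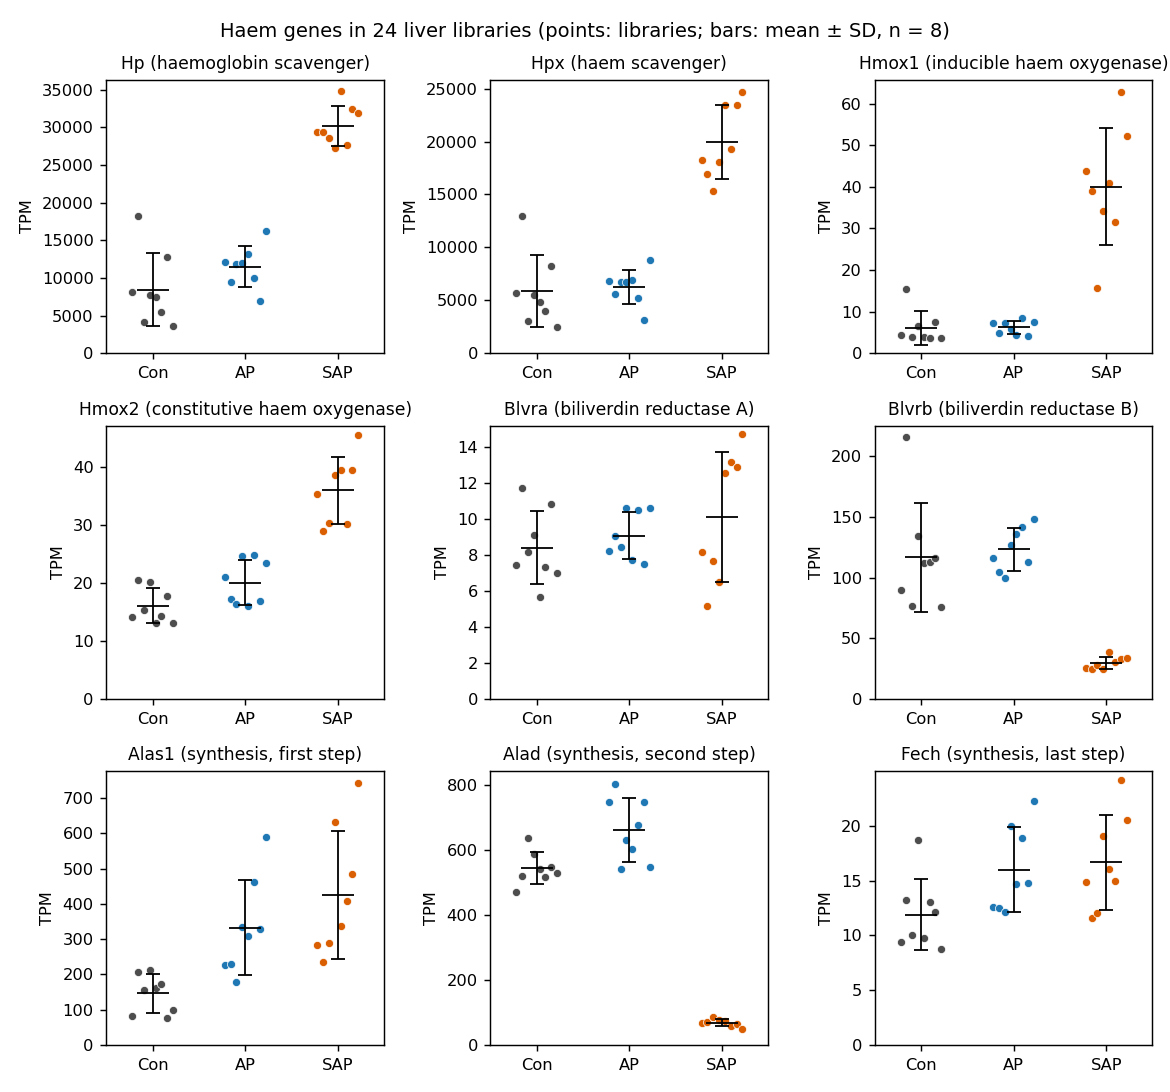
TPM of each of the 9 genes in every library of Con, AP and SAP (points are libraries, bars mean ± SD, n = 8, every axis starting at 0). Hp, Hpx, Hmox1 and Hmox2 are highest in SAP, Blvrb and Alad lowest, and the SAP values of Blvra form separate sets of 5.15 to 8.17 and 12.6 to 14.7 TPM.

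Because TPM is scaled by length, the levels of the genes can also be ordered. In Con and in AP the order of means was Hp, Hpx, Alad, Alas1, Blvrb, Hmox2, Fech, Blvra and Hmox1. In Con the ranges of Hp and Hpx, Alas1 and Blvrb, Hmox2 and Fech, Fech and Blvra, and Blvra and Hmox1 overlapped, and in AP those of Hp and Hpx, Alad and Alas1, Hmox2 and Fech, and Blvra and Hmox1. In SAP the order was Hp, Hpx, Alas1, Alad, Hmox1, Hmox2, Blvrb, Fech and Blvra. Alas1 lay above Alad in all SAP libraries, with no overlap of their ranges, whereas in Con Alad lay above Alas1 with no overlap. Neighbours that overlapped in SAP were Alad and Hmox1, Hmox1 and Hmox2, Hmox2 and Blvrb, and Fech and Blvra. Hmox1 went from rank 4606 of all genes in Con and 4752 in AP to 1474 in SAP.

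The other 15 genes of haem synthesis and its transport were mostly lower in SAP. Against Con 4 rose and 8 fell, with a median log2 change of -0.66, and in AP 1 rose and 14 did not pass. Over all genes tested, 44.2% were higher and 29.8% lower in SAP against Con, and 4.35% were higher in AP against Con. The gene that rose in AP was Tspo, a mitochondrial membrane protein, and this call was lost with quantile normalization and with both rescalings. The counts in SAP against Con became 3 risen and 11 fallen with median centring and with rescaling without mitochondrial genes. Abcb6, a porphyrin transporter, went from 51.7 ± 9.79 TPM in Con and 63.4 ± 9.93 TPM in AP to 11.6 ± 2.74 TPM in SAP (log2 change -2.08 ± 0.15, limma adjusted p = 4.37e-12 against Con), but 50% of its sequence windows are shared with Gm29253, so its level is uncertain. Uros, the fourth enzyme, went from 6.64 ± 1.24 to 1.76 ± 0.469 TPM (-1.47 ± 0.12, limma adjusted p = 6.84e-11), and Urod, the next enzyme, from 65.2 ± 3.39 to 35.3 ± 5.64 TPM (-0.88 ± 0.09, limma adjusted p = 7.02e-09). Alas2, the form of the first enzyme known from red cell precursors, went from 103.7 ± 11.0 to 36.4 ± 15.2 TPM (-1.58 ± 0.19, limma adjusted p = 4.26e-08), the opposite direction to Alas1. It overlaps Apex2 on the opposite strand. Of 8 red cell markers measured, 5 were tested, and only Alas2 of these fell, while Slc4a1 and Epb42 were at 0.06 TPM or less in every library. The summed level of the red cell markers ran from 176 to 626 TPM in Con, from 114 to 741 TPM in AP and from 79.2 to 277 TPM in SAP (SAP against Con, exact permutation test, adjusted p = 0.1075). This sum includes Alas2 itself, so it does not measure red cells apart from Alas2. The part of red cells in the levels of Alas2 and the other synthesis genes was not tested.

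Of 8 tested receptors and carriers of haem and its scavengers, 3 rose and 3 fell in SAP against Con (median log2 change 0.21), and 1 rose in AP. With 44.2% higher and 29.8% lower over all genes tested in SAP against Con, the SAP counts do not set this list apart. In AP against Con, 4.35% of all genes tested were higher. Cd163, the macrophage receptor for haptoglobin bound to haemoglobin, went from 1.40 ± 0.902 to 0.635 ± 0.502 TPM (-0.54 ± 0.22, limma adjusted p = 0.0321). Of 9 tested Kupffer cell markers 7 fell and Marco rose in SAP against Con, and the part of these cells in the Cd163 values was not tested. Lrp1, the receptor for hemopexin bound to haem, went from 56.8 ± 15.1 to 98.2 ± 17.1 TPM (0.81 ± 0.18, limma adjusted p = 0.00022). Ambp, the precursor of the haem-binding plasma protein alpha-1-microglobulin, went from 1761 ± 619 to 3233 ± 213 TPM (0.94 ± 0.16, limma adjusted p = 6.96e-06). Slc46a1, a folate and haem importer, rose in AP (14.3 ± 4.27 TPM, limma adjusted p = 0.0414) and fell in SAP (4.30 ± 0.895 TPM, limma adjusted p = 1.36e-05) against 9.17 ± 2.04 TPM in Con, the AP call being lost with quantile normalization and with both rescalings.

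Of 9 tested regulators of these genes, 6 rose and none fell in SAP against Con (median log2 change 0.82), and in AP against Con none passed. Among all genes tested, 44.2% were higher and 29.8% lower in SAP against Con, and 5.48% passed in AP against Con. With quantile normalization, median centring and rescaling without mitochondrial genes, 5 rose and 1 fell in SAP against Con, since the call of Nr1d2, a haem-binding repressor, was lost and Keap1, the inhibitor of NRF2, passed as lower. Bach1, the haem-sensing repressor of Hmox1, went from 1.30 ± 0.276 to 3.22 ± 1.37 TPM (0.82 ± 0.16, limma adjusted p = 7.8e-05). Nfe2l2, which encodes the activator NRF2, went from 5.83 ± 2.33 to 25.3 ± 6.02 TPM (1.99 ± 0.19, limma adjusted p = 6.38e-10). Hif1a, the hypoxia factor, went from 1.21 ± 0.126 to 26.9 ± 9.51 TPM (3.58 ± 0.16, limma adjusted p = 1.02e-15), and Mafk, a partner of both BACH1 and NRF2, from 2.86 ± 0.655 to 7.36 ± 2.25 TPM (1.08 ± 0.16, limma adjusted p = 1.06e-06).

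Other known targets of BACH1 and NRF2 went in both directions. Of 11 tested, 4 rose and 6 fell in SAP against Con (median log2 change -1.02), and none passed in AP. The shares over all genes tested were 44.2% higher and 29.8% lower in SAP against Con, and 5.48% passing in AP against Con. The 4 that rose, as Hmox1 did, were Gsr (log2 change 1.69), Fth1 (1.51), Txnrd1 (1.03) and Me1 (0.72), of which Gsr, which recycles glutathione, Txnrd1, a thioredoxin reductase, and Me1, malic enzyme, are named after their values were seen. Of Me1, 22.9% of windows are shared with other genes, so its level is uncertain. Gclm, a subunit of the enzyme that starts glutathione synthesis, went from 69.7 ± 12.5 to 22.4 ± 3.21 TPM (-1.59 ± 0.12, limma adjusted p = 1.23e-11). Osgin1, an oxidative stress gene, went from 134 ± 39.0 to 16.6 ± 9.12 TPM (-3.08 ± 0.27, limma adjusted p = 3.07e-10). The ferritin chains, which store the iron that haem oxygenase frees, parted: Fth1 went from 1175 ± 356 to 3239.9 ± 372 TPM (1.51 ± 0.16, limma adjusted p = 4.09e-09), and Ftl1 from 7719 ± 1078 to 2924 ± 589 TPM (-1.41 ± 0.11, limma adjusted p = 3.71e-11), with 50.9% of Ftl1 windows shared with other genes and its level therefore uncertain. Slc40a1, the iron exporter ferroportin, went from 9.20 ± 3.801 to 0.803 ± 0.713 TPM (-2.52 ± 0.23, limma adjusted p = 3.13e-10).

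Downstream of biliverdin reductase, 2 of 6 genes of bilirubin handling rose and 4 fell in SAP against Con (median -1.74), and 1 rose in AP. Beside these counts, 44.2% of all genes tested were higher and 29.8% lower in SAP against Con, and 4.35% were higher in AP against Con. The uptake carriers Slco2b1 and Slco1b2 went from 21.9 ± 2.86 to 4.44 ± 0.865 TPM (-2.08 ± 0.11, limma adjusted p = 2.11e-14) and from 37.4 ± 5.67 to 5.67 ± 2.12 TPM (-2.57 ± 0.15, limma adjusted p = 1.12e-13). Abcc2, which exports conjugated bilirubin into bile, went from 27.6 ± 5.89 to 3.59 ± 2.20 TPM (-2.76 ± 0.22, limma adjusted p = 2.87e-11). Ugt1a1, which conjugates bilirubin, went from 19.2 ± 7.03 to 41.9 ± 21.9 TPM in AP (limma adjusted p = 0.0424, lost with quantile normalization and both rescalings) and to 70.1 ± 24.2 TPM in SAP (1.80 ± 0.28, limma adjusted p = 3.05e-06), but it shares 58.2% of its windows with its gene family, so its level is uncertain.

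All 11 acute-phase genes tested rose in SAP against Con, as Hp and Hpx did (median log2 change 2.72), and 4 rose in AP. The shares higher over all genes tested were 44.2% in SAP against Con and 4.35% in AP against Con. Of the 4 AP calls, that of Itih4 was lost with quantile normalization and with both rescalings. Saa1 and Saa2 are among the 50 most abundant genes and were not tested in the rescaling without them, which tested 5 of the 11 genes. Fgb, the fibrinogen beta chain, went from 688.5 ± 235 to 13167 ± 3152 TPM (4.29 ± 0.21, limma adjusted p = 2.71e-15), Saa3, a serum amyloid A, from 192 ± 346 to 21325 ± 6856 TPM (8.12 ± 0.65, limma adjusted p = 3.81e-11), and Lrg1, a secreted glycoprotein, from 659 ± 294 to 4088 ± 729 TPM (2.72 ± 0.21, limma adjusted p = 1.56e-11). Exocrine pancreas markers were carried by Cela1 alone, and every other one of the 11 stayed at 0.53 TPM or less.

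**Figure D4:**
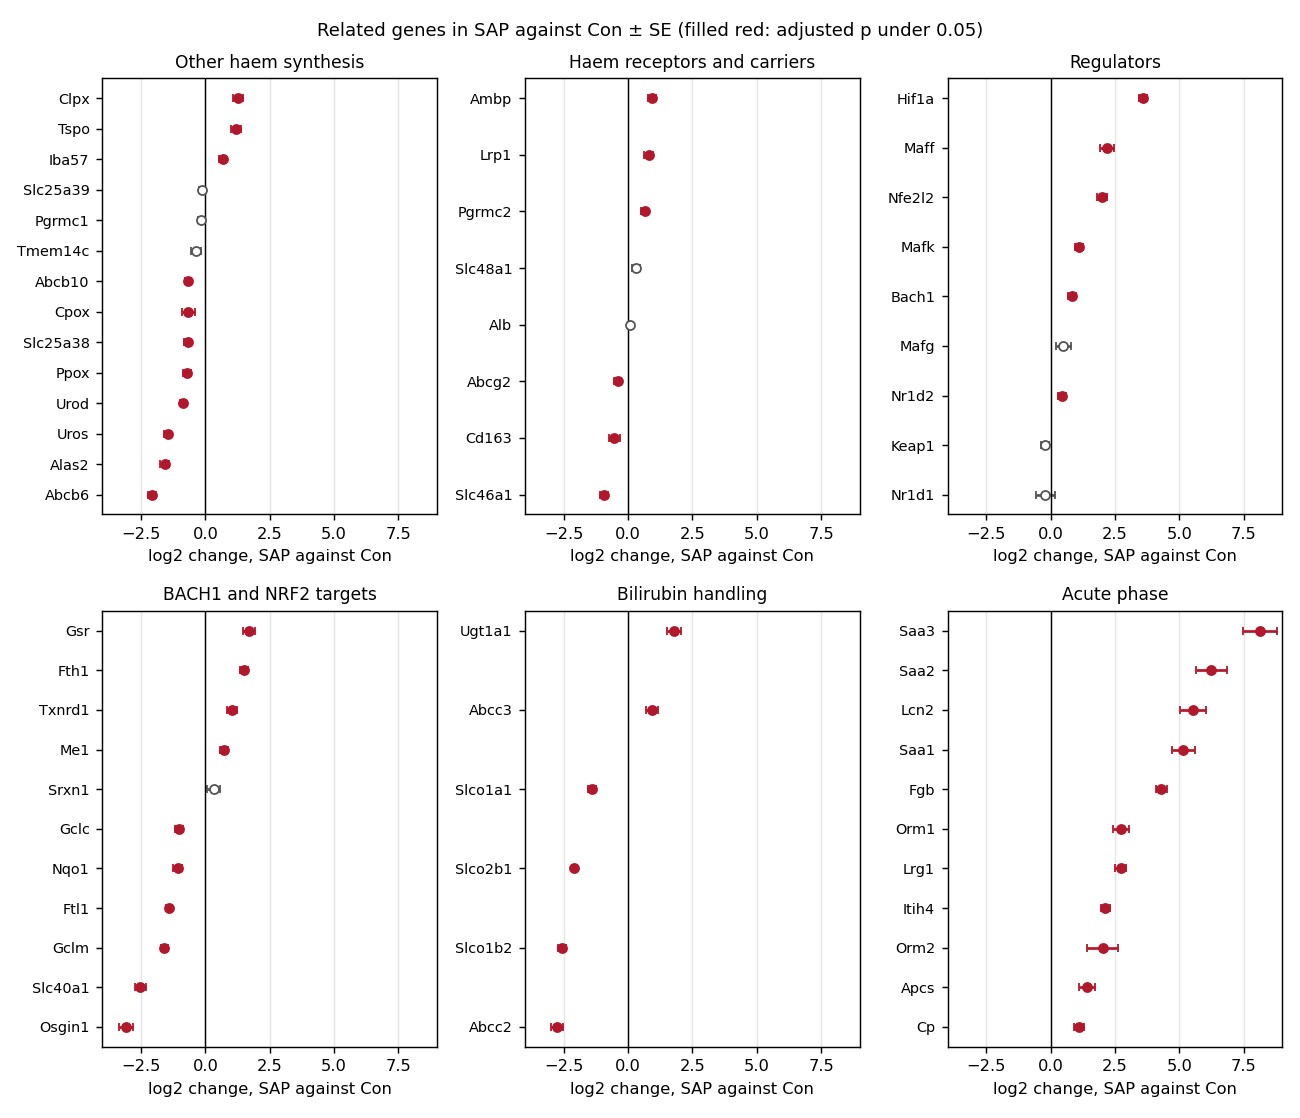
Log2 change ± SE in SAP against Con (x axis) of tested genes of 6 related lists (not every tested gene is plotted), with filled red points for adjusted p under 0.05 in limma. All acute-phase genes lie to the right, most of the other haem synthesis genes to the left, and the BACH1 and NRF2 targets lie on both sides.

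The genes most like each member were taken as those with the highest mean of the Pearson correlations within Con, AP and SAP (8 libraries each) over the 5207 genes whose mean reached 5 TPM. They are a description without a test, since libraries of a group share sets and composition. For Hp these were Lcn2 (mean r 0.932), Hpx (0.915) and C3 (0.882), and for Hpx they were Copa (0.919), Serping1 (0.918) and Hp (0.915). Hmox1 was most like Slc3a2 (0.845), Hmox2 most like Bub3 (0.930), Blvra most like Rab5b (0.912) and Blvrb most like Psmc5 (0.909). Alas1 was most like Syap1 (0.839) and Fech most like Rtcb (0.959). Alad had the lowest top value, with Fitm1 at 0.723.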

How the data were processed

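Liver RNA of 24 libraries, 8 per group, had been extracted with Trizol and made into libraries by standard Illumina methods, per the labels. The values are TPM as the authors deposited them, a unit read from the table: columns sum to nearly 1000000, and the median smallest value above 0 is 0.2 TPM over 3243 genes of 300 to 600 bases and 0.02 TPM over 3545 genes of 3000 to 6000 bases. The submitters' processing notes name edgeR, with no version. The sources used here do not name an aligner, a genome build or a counting step. TPM is relative to a fixed total, so a rise of abundant transcripts lowers all others, and depth is unknown.

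A pseudocount of 1 was added before log2. The filter, a mean of 1 TPM or more, kept 10555 genes and dropped 44981. A limma model (version 3.58.1, R 4.3.3, trended prior variance) used the 3 groups and all 24 libraries, leaving 21 residual degrees of freedom, with Benjamini-Hochberg adjustment over all genes tested and a threshold of 0.05. The fit was tested on simulated data. For ratios and library measures, two-sided exact permutation tests ran through 12870 arrangements. Python 3.11.15 was used for these. Named genes were the 9 members and, from each of 6 pathway lists, at most the 3 with the smallest p over all groups, plus genes with a role beside a member. The members, lists and sets of libraries left out were chosen with earlier results of these data known. Levels were called uncertain where a fraction of 0.2 or more of a gene's windows of 50 bases also occurs in other genes. Promoter windows came from RefSeq on GRCm38.p6, while the sequence of Fech and protein sequences were not used here. Some genes of the lists are not reported by name here or plotted, but stay in all counts. Alternatives were 16 settings and 24 fits that each left out 1 library, and, added later, ratios without the same sets of libraries.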

Additional observations from a re-analysis of the deposited data

Results flagged for a closer look

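Single libraries far from their group were looked for in 36 groups of 8 libraries (the 9 genes and 3 ratios in each group), by the gap between the highest or lowest library and its neighbour as a share of the group's range, against Dixon's critical value. For normally distributed values, chance flags about 1 in 20 groups, and 4 of the 36 were flagged, all in Con. The genes entered as TPM without log2, where high values stand out more easily. The ratios reuse the same genes, so the flags are not independent and their number is no test. Con 3 held 15.5 TPM of Hmox1, where the other controls held 3.72 to 7.46 TPM (gap share 0.6825). The same library held 215.61 TPM of Blvrb, where the others held 75.9 to 134 TPM (0.5847). Its log2 ratio of Hmox1 to Hmox2 was -0.37918, where the others ran from -1.74 to -1.15 (0.5671). Con 6 held 18.73 TPM of Fech, where the others held 8.76 to 13.2 TPM (0.5537).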

How the results depend on the processing

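Hp, Hpx, Hmox1, Hmox2, Blvrb and Alad in both SAP comparisons, and Alas1 in SAP against Con, kept direction and call in all 40 alternatives (Hp and Hpx, themselves among the 50 most abundant genes, stayed in the test of the rescaling that leaves out the other abundant genes; Alad -3.27 to -2.85, Hmox1 2.30 to 2.87 and Blvrb -2.15 to -1.68 against Con). Over the 9 genes and 3 ratios, 1220 of 1263 alternative values kept direction and side of the threshold, judged for ratios by the unadjusted p.

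Exceptions follow as log2 changes, and their cause was not tested. Quantile normalization gave Blvrb -0.056 in AP against Con, Blvra -0.082 and Fech 0.23 in SAP against Con, and Blvra -0.12, Alas1 0.60 (passing) and Fech -0.048 in SAP against AP. Median centring gave Fech 0.35 (passing) in AP against Con, Blvra -0.0815 and Fech 0.18 in SAP against Con, and Blvra -0.15 and Fech -0.17 in SAP against AP. Rescaling without the 50 most abundant genes gave Blvra -0.0031 in AP against Con, and without mitochondrial genes Fech 0.26 in SAP against Con and Blvra -0.016 and Fech -0.045 in SAP against AP. Array weights made Hp 0.70, Hmox2 0.34, Alad 0.28 and Fech 0.42 pass in AP against Con, and gave Blvra -0.059 in SAP against AP. Without Con 3 and 9, Hp passed at 0.94 in AP against Con. Without SAP 21, 22, 24 and 25, Blvra passed at 0.63 against Con and 0.52 against AP, and without SAP 26 to 29 it was -0.25 and -0.36 (the latter passing), with Fech at 0.27 and -0.13. Without AP 15, 17, 18 and 19, Alas1 was 0.76 against Con, not passing, and 0.77 for SAP against AP, passing. Without AP 11, 12, 13 and 16, Fech passed at 0.65 in AP against Con, and SAP against AP gave Blvra -0.0204, Alas1 -0.074 and Fech -0.20. For ratios, leaving out the same sets was added after seeing the data. The log2 ratio of Hmox1 to Hmox2 in AP against Con became 0.032 without Con 3 and 9, and that of Hmox1 to Alas1 no longer passed in AP against Con without AP 15, 17, 18 and 19 (-0.68) or in SAP against Con without SAP 26 to 29 (1.04).

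The count of genes passing in AP against Con, 578, became 1006 with median centring, 384 without mitochondrial genes, 222 with no filter, 1458 with array weights, 911 without Con 3 and 9, 11 without AP 15, 17, 18 and 19, and 1239 without AP 11, 12, 13 and 16. Leaving out 1 library gave 180 to 841, with 210 without Con 1, 180 without Con 7, 226 without Con 10, 181 without AP 15, 211 without AP 17, 340 without AP 18 and 237 without AP 19. It also gave Hp 0.45 to 0.78 in AP against Con, Fech -0.027 to 0.12 and Blvra -0.0052 to 0.19 in SAP against AP, and a log2 ratio of Blvra to Blvrb of -0.10 to 0.049 in AP against Con. Higher and lower calls split 459 to 119 in AP against Con, but 388 to 265 with quantile normalization, 194 to 215 without the 50 most abundant genes and 211 to 173 without mitochondrial genes. In SAP against Con the split of 4661 to 3147 became 3888 to 4300 with median centring, which moved the median of all genes from 0.21 to -0.06, and in SAP against AP 4332 to 3275 became 3708 to 4278. No paired analysis was possible because the groups share no replicate numbers.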

Other observations

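The proportion of the scavengers to each other was computed after the values were seen and is given without a test. The TPM ratio of Hp to Hpx was 1.44 ± 0.0742 in Con, 1.86 ± 0.157 in AP and 1.54 ± 0.190 in SAP (SD, n = 8). Its range in AP (1.70 to 2.21) lay above that in Con (1.33 to 1.54), and SAP (1.29 to 1.87) overlapped both.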
